A study of Mus musculus with 5 samples.

Results

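The 10 genes described here are widely used as markers of astrocytes: Gfap, Aqp4, Aldh1l1, Slc1a2, Slc1a3, Gja1, Gjb6, Aldoc, Sparcl1 and Atp1b2. Every probe that the array files name for 1 of these genes was taken, control spots left out, which gave 15 of 55681 probes, or 10 of 36163 gene names. Gfap and Slc1a2 had 3 probes each, Aqp4 had 2, and the other 7 genes had 1 probe each. The study measured RNA of mouse cells on 1-colour Agilent arrays. Its 5 arrays hold mouse embryonic fibroblasts (MEF, 1 array), neural progenitor cells that were taken from mouse brain and served as the control (NPC, 1 array), and chemically induced neural progenitor cells (ciNPC) at passage 5 (p5, 1 array) and passage 13 (p13, 2 arrays). The title of the series names chemical cocktails and hypoxia as the means by which the progenitors were made. The compounds, the oxygen level, the starting cells of each culture, the strain and the age of the animals are not given in the labels used here. The comparison was made to establish what kind of cell the ciNPC are.

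Astrocytes are the glial cells that clear glutamate from synapses, buffer potassium, pass metabolites through gap junctions and line blood vessels with their end feet. Several of their genes are not private to mature astrocytes. Slc1a3, Aldoc, Sparcl1 and Aldh1l1 are also active in radial glia and in neural stem and progenitor cells. Gfap, Aqp4, Slc1a2 and Gjb6 rise as astrocytes mature in the brain, and Gfap is in addition the classic marker of reactive astrocytes.

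Gfap and Slc1a2 are read by several probes that stand for different transcript variants, and these probes did not read alike on the same arrays. The beginnings of their 60-base sequences are therefore shown, as the deposited array files give them, 30 bases each from the 5′ end. The capitals in Gfap probe 2 mark a run of 12 bases that this probe holds more than once.

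Gfap probe 1: caaaaggctcacaatacaagttgtcccaat
Gfap probe 2: ggttatattaacAGAGCTAGCCTAtgctaa
Gfap probe 3: tttgaggaactgaaacgtgttgtgttcaag
Slc1a2 probe 1: aagcaactctaatcagtgtgtctatgccgc
Slc1a2 probe 2: gtagaatgtttcagagtttcatgggtgccc
Slc1a2 probe 3: aacccagtttccagcattcagacatcagta

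In the mouse build mm9, which the file headers name, Gfap probe 1 lies at chr11:102752726-102752785 and Gfap probe 2 at chr11:102751813-102751872, both assigned to transcript NM_001131020. Gfap probe 3 lies at chr11:102748864-102748923 and is assigned to NM_010277. Slc1a2 probe 1 lies at chr2:102617752-102617811 (NM_011393), probe 2 at chr2:102622252-102622311 and probe 3 at chr2:102626380-102626439 (both NM_001077514). Gfap is on the minus strand and Slc1a2 on the plus strand.

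All levels below are log2 of the processed signal minus the 75th percentile of the same array, so 0 is the level of that percentile. A level is a property of 1 probe and is not set against the level of another probe. A probe was well above background where the scanner software set that mark for it. Of the 15 probes, 11 entered the tests. They had that mark on all arrays of 1 or more of the 4 groups, and they covered all 10 genes. Gfap probes 1 and 2 and Slc1a2 probes 2 and 3 did not enter. Gjb6 entered only through the single p5 array. No member spot was saturated. The share of spots well above background was 47.9% to 57.6% over the 5 arrays. MEF and NPC were hybridised on 1 slide and the 3 ciNPC arrays on another, so the cell type and the slide cannot be told apart when ciNPC are compared with either control. NPC against MEF and p13 against p5 lie within 1 slide. p13 replicate 2 stood apart: its spike-in slope was 0.803 against 0.915 to 0.987 on the other arrays. Whether p13 replicates 1 and 2 are separate cultures is not stated. The p-values therefore cover only the spread seen between these arrays, which may be technical. In the tests against MEF and NPC the p5 and p13 arrays form 1 group, so that spread also holds any difference between passages.

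Genes of glutamate uptake, glycolysis and folate metabolism, a secreted matrix protein, a sodium pump subunit and a connexin were higher in ciNPC than in fibroblasts. Of the 11 probes tested, 7 were higher in ciNPC than in MEF and 0 were lower, by limma with Benjamini-Hochberg adjustment over all 35611 probes tested (adjusted p under 0.05 and at least 2-fold). In the same test 12.5% of all probes were higher and 11.3% were lower. The same 7 member probes had an unadjusted p under 0.05, as did 43.7% of all probes. The median difference was 2.99 on the log2 scale over the 11 member probes and -0.09 over all probes tested. The 7 genes were Sparcl1, Atp1b2, Slc1a3, Aldoc, Aldh1l1, Slc1a2 and Gja1; the probes of Gfap, Aqp4 and Gjb6 that were tested did not pass. RNA was taken from whole cultures, so fewer cells that use a gene and less RNA per cell cannot be told apart. Taking the 75th percentile over the probes detected on all 5 arrays moved the median of all probes to 0.06, and the same 7 probes passed.

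**Figure D1:**
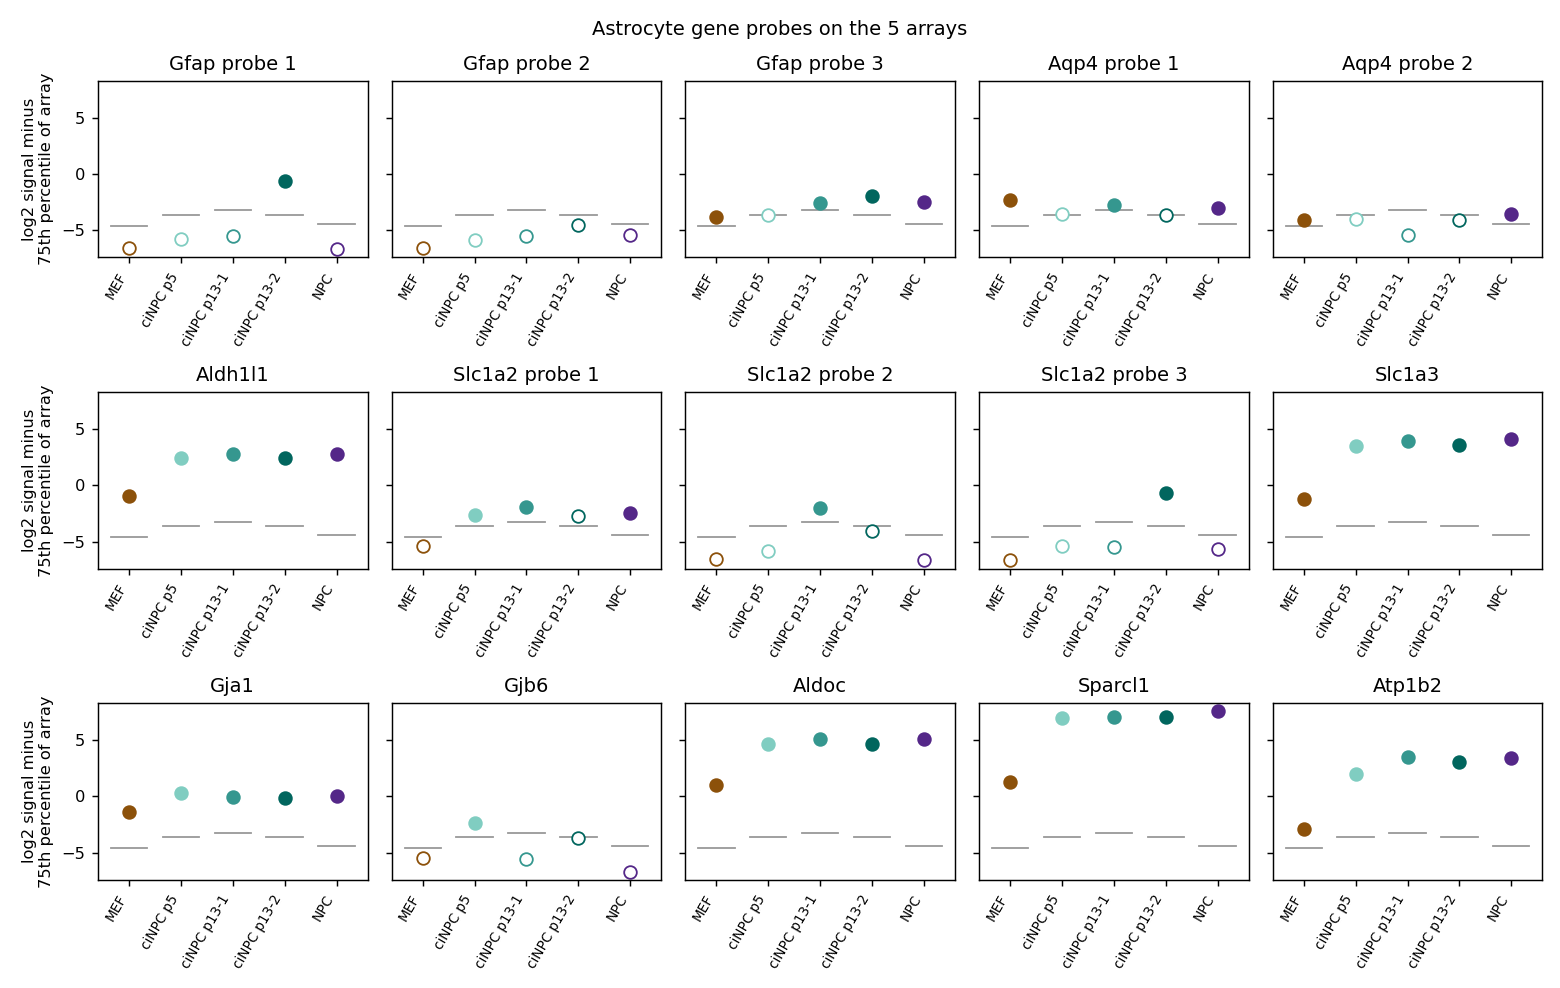
Level of each of the 15 probes on each array, as log2 of the processed signal minus the 75th percentile of that array. Each circle is 1 array, filled where the probe was well above background and hollow where it was not, and the grey line is the lowest level of any probe well above background on that array. Sparcl1, Aldoc, Slc1a3, Aldh1l1 and Atp1b2 are filled on all 5 arrays, with MEF the lowest, and 1 isolated filled circle stands out for Gfap probe 1 and for Slc1a2 probes 2 and 3.

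Slc1a3 encodes GLAST, the glutamate transporter of radial glia and astrocytes. Its probe (chr15:8584236-8584295, minus strand) read -1.26 in MEF, 3.49 at p5, 3.91 and 3.59 at p13, and 4.15 in NPC. All 3 ciNPC arrays lay far above MEF and somewhat below NPC, with no overlap. Slc1a3 was higher in ciNPC than in MEF by 4.92 on the log2 scale (SE 0.18, limma adjusted p = 1.39e-05, n = 3 arrays against 1).

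Slc1a2 encodes GLT-1, the transporter that clears most synaptic glutamate in the adult forebrain. Its probe 1 read -5.44 in MEF, -2.65 at p5, -1.91 and -2.78 at p13, and -2.49 in NPC. It was well above background at p5, on p13 replicate 1 and in NPC, but not in MEF and not on p13 replicate 2. With the MEF value raised to the floor of its array, the ciNPC mean was 4.52-fold higher, p13 replicate 2 included. The fitted difference was 2.99 (SE 0.61, limma adjusted p = 0.00914). That call was lost under quantile normalization (2.53, adjusted p = 0.0950), in the value table of the authors (2.53, adjusted p = 0.0953) and without p13 replicate 1 (2.73, adjusted p = 0.0509), all by limma. With normexp background correction the difference fell to 1.35 (limma adjusted p = 0.0216).

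The other Slc1a2 probes gave isolated signals. Probe 2 read -6.59 in MEF, -5.84 at p5, -1.99 and -4.05 at p13, and -6.62 in NPC, and was above background only on p13 replicate 1. Probe 3 read -6.60 in MEF, -5.36 at p5, -5.47 and -0.68 at p13, and -5.65 in NPC, and was above background only on p13 replicate 2. The p13 replicates therefore disagreed in opposite ways on these 2 probes, which the files assign to the same transcript. No level of the longer transcript is given from them.

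Aldoc encodes aldolase C, the glycolytic enzyme form of brain glia. Its probe (chr11:78140198-78140257, plus strand) read 0.97 in MEF, 4.62 at p5, 5.07 and 4.64 at p13, and 5.13 in NPC. It was well above background in every cell type, and every neural array lay above the fibroblast array. Aldoc was higher in ciNPC than in MEF by 3.80 (SE 0.20, limma adjusted p = 4.38e-05).

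Aldh1l1 encodes the folate enzyme 10-formyltetrahydrofolate dehydrogenase, a marker of astrocytes throughout the brain. Its probe (chr6:90549091-90549150, plus strand) read -0.95 in MEF, 2.41 at p5, 2.73 and 2.38 at p13, and 2.81 in NPC. Among the ciNPC arrays p13 replicate 1 lay nearest to NPC, as for Aldoc, and the p5 array and p13 replicate 2 lay close together. Aldh1l1 was higher in ciNPC than in MEF by 3.46 (SE 0.18, limma adjusted p = 4.80e-05).

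Sparcl1 encodes hevin, a matrix protein that astrocytes secrete and that promotes excitatory synapses. Its probe (chr5:104508149-104508208, minus strand) read 1.25 in MEF, 6.97 at p5, 7.01 and 7.01 at p13, and 7.55 in NPC. The 3 ciNPC arrays agreed to within an SD of 0.020, which was the smallest spread among the 15 probes. Sparcl1 was higher in ciNPC than in MEF by 5.75 (SE 0.12, limma adjusted p = 1.68e-06).

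Atp1b2 encodes the beta-2 subunit of the sodium-potassium pump, also known as the adhesion molecule on glia. Its probe (chr11:69413253-69413312, minus strand) read -2.87 in MEF, 1.97 at p5, 3.45 and 3.01 at p13, and 3.43 in NPC. The p5 array lay between MEF and the other neural arrays, and p13 replicate 1 reached the NPC level. Atp1b2 was higher in ciNPC than in MEF by 5.69 (SE 0.50, limma adjusted p = 0.000310).

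Gja1 encodes connexin 43, the main gap junction protein of astrocytes, which fibroblasts also make. Its probe (chr10:56109814-56109873, plus strand) was printed in 10 spots on each array, and the SD over the spots was 0.05 to 0.084. It read -1.40 in MEF, 0.25 at p5, -0.10 and -0.16 at p13, and 0.00 in NPC. All neural arrays lay above MEF, but by less than for the genes above. Gja1 was higher in ciNPC than in MEF by 1.40 (SE 0.25, limma adjusted p = 0.00581).

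Gjb6 encodes connexin 30, the second gap junction protein of mature astrocytes. Its probe (chr14:57742226-57742285, minus strand) read -5.48 in MEF, -2.36 at p5, -5.56 and -3.71 at p13, and -6.69 in NPC. It was above background on the p5 array alone. The difference from MEF was 1.60 (95% interval -1.84 to 5.05, limma adjusted p = 0.453), an interval too wide to show either a rise or a fall.

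Gfap encodes the intermediate filament protein of mature and reactive astrocytes. Probe 3 read -3.79 in MEF, -3.60 at p5, -2.52 and -1.92 at p13, and -2.47 in NPC. It was above background in MEF, on both p13 arrays and in NPC, but not at p5. The difference between ciNPC and MEF was 1.11 (95% interval -0.64 to 2.85, limma adjusted p = 0.302). Probe 2 was above background on no array, with levels from -6.61 in MEF to -4.55 on p13 replicate 2. Probe 1 read -6.60 in MEF, -5.80 at p5, -5.50 and -0.59 at p13, and -6.64 in NPC, so that p13 replicate 2 alone carried a signal. The NPC array and p13 replicate 1 carried no such signal on this probe.

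Aqp4 encodes the water channel of astrocyte end feet. Probe 1 read -2.32 in MEF, -3.52 at p5, -2.75 and -3.65 at p13, and -3.04 in NPC. Probe 2 read -4.06 in MEF, -3.96 at p5, -5.44 and -4.04 at p13, and -3.56 in NPC. On probe 1 MEF was the highest array and the NPC array lay within the range of the ciNPC arrays. On probe 2 both control arrays were above background and no ciNPC array was. Neither probe passed against MEF, with limma differences of -0.98 (95% interval -2.45 to 0.48, adjusted p = 0.276) and -0.42 (95% interval -2.76 to 1.92, adjusted p = 0.787).

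Signals on a single array were common on p13 replicate 2. Over all non-control probes, 2460 (4.42%) were above background on exactly 1 array and at least 4-fold over the next array. Of these, 1736 were on p13 replicate 2, and 91 to 243 on each of the other arrays. Among the members, 3 probes had this pattern: Gfap probe 1 and Slc1a2 probe 3 on p13 replicate 2, and Slc1a2 probe 2 on p13 replicate 1. Whether these signals came from RNA of the genes was not tested.

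NPC and MEF were each measured on 1 array, and their difference is described without a test. Of the 11 probes, 6 were at least 4-fold higher in NPC and 0 at least 4-fold lower, with dim values raised to the floor of their array; among all probes 7.26% were higher and 7.5% lower by that rule. Sparcl1 differed by 6.30, Atp1b2 by 6.30, Slc1a3 by 5.40, Aldoc by 4.16 and Aldh1l1 by 3.76 on the log2 scale. Slc1a2 probe 1 was at least 4.37-fold higher in NPC. Gja1 differed by 1.40, under the 4-fold line.

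Against the NPC array, 0 of the 11 member probes passed as higher and 0 as lower by limma. Of all probes, 2.73% were higher in ciNPC and 0.0534% lower. At an unadjusted p under 0.05, 2 member probes differed, Slc1a3 and Sparcl1, beside 13.6% of all probes. The member median was -0.30 and the median of all probes -0.12. These p-values do not show that ciNPC and NPC have equal levels, and the intervals give the range that the 5 arrays leave.

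For Sparcl1 the ciNPC mean was lower than NPC by a limma difference of -0.55 (95% interval -0.83 to -0.27, adjusted p = 0.0728), with 3 of 3 arrays below NPC. Its adjusted p fell under 0.05 with normexp background correction (0.0257) and without the p5 array (0.00369), each time with a difference under 2-fold. For Slc1a3 the difference was -0.48 (95% interval -0.92 to -0.04, limma adjusted p = 0.330), again with 3 of 3 arrays below NPC. Aldoc at -0.35 (95% interval -0.82 to 0.12) and Aldh1l1 at -0.30 (95% interval -0.74 to 0.14) had intervals that crossed 0. Those 4 intervals exclude a difference of 2-fold in either direction.

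The intervals of the other members were wider. Atp1b2 differed from NPC by -0.62 (95% interval -1.81 to 0.58) and by -0.94 without p13 replicate 1, where its limma adjusted p was 0.0154 at under 2-fold. Gja1 differed by -0.005 (95% interval -0.61 to 0.60), and Slc1a2 probe 1 by 0.05 (95% interval -1.41 to 1.5). Gfap probe 3 differed by -0.21 (95% interval -1.96 to 1.54), and the Aqp4 probes by -0.27 (95% interval -1.73 to 1.2) and -0.91 (95% interval -3.26 to 1.43). Gjb6 differed by 2.81 (95% interval -0.64 to 6.25). For Atp1b2, Slc1a2, Gfap, Aqp4 and Gjb6, these intervals leave room for differences of more than 2-fold.

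**Figure D2:**
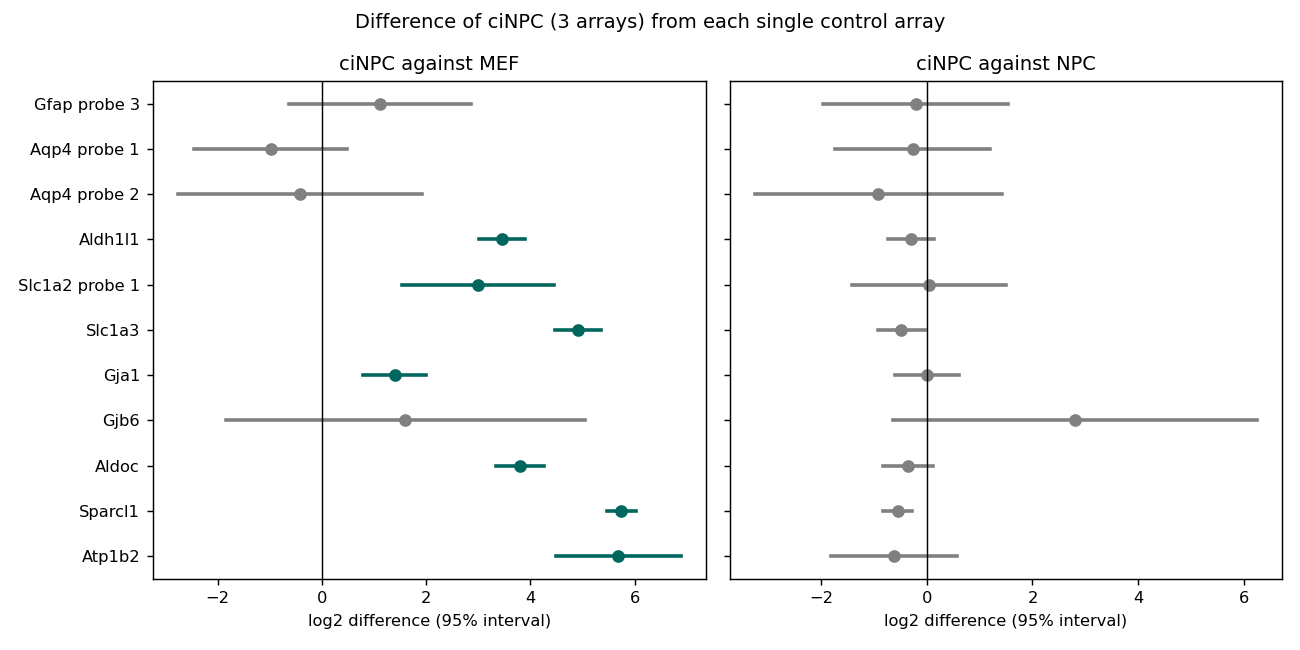
Log2 difference of the 3 ciNPC arrays from the MEF array (left) and from the NPC array (right) for the 11 probes tested, with the 95% interval from limma. Green marks the 7 probes that passed against MEF, and no probe passed against NPC. Intervals are narrow for Sparcl1, Slc1a3, Aldoc and Aldh1l1 and widest for Gjb6.

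A position between the control cells puts these genes on 1 scale, where 0 is the MEF level of a probe and 1 its NPC level, with dim values raised to the floor of their array. It was computed for the 6 member probes whose NPC level exceeded the MEF level by 4-fold or more. The median over these probes was 0.920 ± 0.054 (SD, n = 3 ciNPC arrays). Over all 2587 probes that were higher in NPC by the same rule it was 0.850 ± 0.023, and no test was made of the difference. Position is a share of the NPC minus MEF difference, which had a median of 4.78 over the member probes and 2.74 over all those probes. The median positions are therefore not like for like. Sparcl1 stood at 0.912 ± 0.003, Slc1a3 at 0.911 ± 0.040, Aldoc at 0.915 ± 0.061 and Aldh1l1 at 0.920 ± 0.052. Atp1b2 stood at 0.902 ± 0.121, with 0.768 at p5 and 1.00 and 0.934 at p13. Slc1a2 probe 1 stood at 1.02 ± 0.221, from 0.866 to 1.27, where 0 is the floor of the MEF array because the probe was not above background there. All 3 arrays of each gene thus lay closer to NPC than to MEF.

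**Figure D3:**
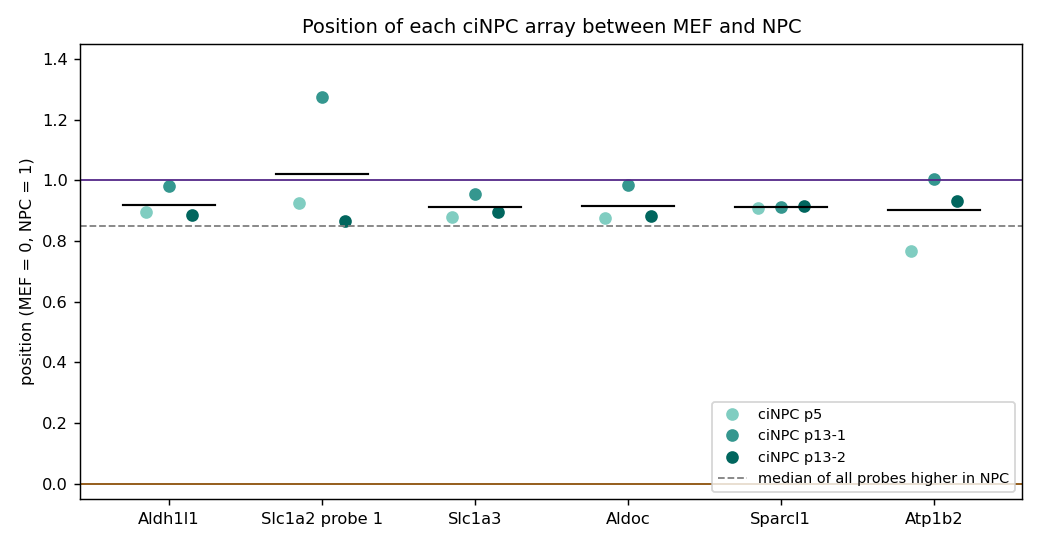
Position of each ciNPC array between MEF (0, brown line) and NPC (1, violet line) for the 6 member probes that exceeded MEF by 4-fold or more in NPC. Points are single arrays, black bars are means of the 3 arrays, and the dashed line at 0.850 is the median over all 2587 probes higher in NPC. Atp1b2 is the probe whose p5 point, at 0.768, lies lowest.

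Between passages, 1 member rose. Atp1b2 was higher at p13 than at p5 by 1.27 (SE 0.14, limma adjusted p = 1.59e-06, 2 arrays against 1), with both p13 arrays above the p5 array. Of all probes 0.637% were higher and 0.202% lower at p13, and 18.7% had an unadjusted p under 0.05. Among the 11 member probes 2 did, Atp1b2 and Slc1a3, the latter with a difference of 0.26 (limma adjusted p = 0.215). The fit had 1 residual degree of freedom, so the p-values lean on the spread pooled over all probes. The Atp1b2 call was lost by limma under quantile normalization (1.35, adjusted p = 0.135), in the value table of the authors (1.35, adjusted p = 0.137) and without the intensity trend in the variance (adjusted p = 0.680). Under quantile normalization 3 probes in all were higher and 0 lower, against 227 higher and 72 lower here.

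The remaining members did not pass between passages. Sparcl1 differed by 0.03 (95% interval -0.19 to 0.26), Aldh1l1 by 0.14 (95% interval -0.12 to 0.40), Aldoc by 0.24 (95% interval -0.01 to 0.48) and Gja1 by -0.39 (95% interval -0.82 to 0.05). Gfap probe 3 differed by 1.38 (95% interval -0.05 to 2.82, limma adjusted p = 0.292), with both p13 arrays above a p5 array that was not above background. Gjb6 differed by -2.28 (95% interval -5.71 to 1.15).

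Of 35 other astrocyte genes tested, 3 passed as higher at p13, beside 0.637% of all probes: Mlc1 (1.02), Cbs (1.46) and Slc25a18 (1.32). Of 26 factors that act in the switch to gliogenesis, 3 passed as higher: Cntfr (1.14), Hes5 (1.12) and Rorb (1.28). A second probe of Rorb passed too (1.14), while one of Cntfr did not (1.03, limma adjusted p = 0.0892). No gene of these lists passed as lower, beside 0.202% of all probes. All 6 of these calls were lost under quantile normalization and without the intensity trend. Of the Atp1b2 profile, the nearest over the 5 arrays among 18032 probes were those of Lsamp (root mean square difference 0.071 on the log2 scale), Cbs (0.10) and Slc25a18 (0.11). Lsamp read -6.48 in MEF, below the floor of that array (-4.62).

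**Figure D4:**
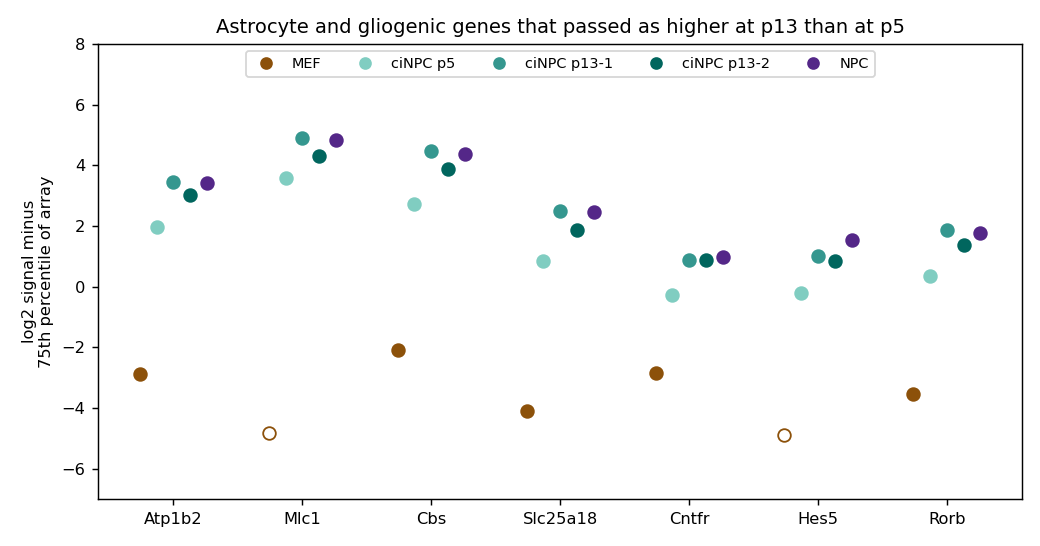
Levels of the genes from the member, other astrocyte and gliogenic lists that passed as higher at p13 than at p5, as log2 signal minus the 75th percentile of the array. Each circle is 1 array, hollow where the probe was not well above background. For each gene both p13 circles lie above the p5 circle.

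Genes with profiles close to those of the other members were found by the same measure, the root mean square difference of the 5 log2 values after each probe was centred on its own mean. Nearest to Sparcl1 were Nxph1 (0.030), Arhgef26 (0.075) and Zbtb16 (0.082). In MEF these read -6.59, -5.27 and -5.59, below the floor of that array (-4.62), so their match there rests on undetected values. Nearest to Aldoc were Klhl32 (0.040), Lfng (0.055) and Gbp3 (0.064). Nearest to Slc1a3 were Dlgap3 (0.050), Cyfip2 (0.053) and Nat8l (0.073), and nearest to Aldh1l1 were Ntn1 (0.070), Lancl3 (0.076) and Lyn (0.082). Gja1 was closest to Bves (0.040), Zfp280c (0.052) and Mettl3 (0.053), and Slc1a2 probe 1 to St8sia5 (0.14), Egr4 (0.15) and Cadps (0.17). Slc1a2 probe 1 was itself not above background in MEF or on p13 replicate 2. Gfap probe 3 was closest to Isl2 (0.12), Prr19 (0.14) and Pikfyve (0.14). At p5 Isl2 (-3.80) and Prr19 (-4.83) lay below the floor of that array (-3.60), and Gfap probe 3 itself was not above background. Prr19 also lay below the floors of MEF (-4.64 against -4.62) and p13 replicate 1 (-3.71 against -3.23). The nearest profiles of the Aqp4 probes were those of Nipal3 (0.14) and Bco2 (0.15), and that of Gjb6 was Il9 (0.25), all of them dim probes or probes of small range.

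Other genes of astrocytes were examined for the same comparisons. Of 35 tested, 18 were higher in ciNPC than in MEF and 2 lower, beside 12.5% and 11.3% of all probes. The median of the 35 was 1.91. The 4 with the largest differences were Mlc1, a membrane protein of end feet, at 9.10 (at least 476-fold), Btbd17 at 8.03 (at least 104-fold), the acyl-CoA synthetase gene Acsbg1 at 6.87 and the mitochondrial carrier gene Slc25a18 at 5.83. Cst3, the gene of the secreted protease inhibitor cystatin C, fell by 1.51 and Ndrg2 fell by 1.27. Against NPC, 2 were higher and 0 lower, beside 2.73% and 0.0534% of all probes. The 2 were F3, the gene of tissue factor, at 3.27 and Clu, the gene of clusterin, at 1.92. Neither of these passed without the intensity trend (limma adjusted p = 0.0807 for F3 and 0.194 for Clu).

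Factors that act in the switch to gliogenesis were split. The list was not divided into genes that promote the switch and genes that restrain it. Of 26 tested, 8 were higher in ciNPC than in MEF and 10 lower, beside 12.5% and 11.3% of all probes. The median of the 26 was -0.58. Sox8 (6.54, at least 24.7-fold), the Notch target Hes5 (5.44, at least 35.8-fold), Lhx2 (5.18) and Rorb (4.75) were the 4 with the largest differences. Sox9, which opens the glial program, and Nfia, its partner, were also among the 8. Nfix (-2.78), Zbtb20 (-1.19) and Hey1 (-1.36) were among the 10 lower, and Nfib and Hes1 did not pass. The 10 lower genes included Stat3, Jak1, Il6st and Socs3, members of the cytokine pathway that activates Gfap, and the BMP targets Id1 and Id3. That pathway was itself split: its receptor genes Cntfr (3.34) and Lifr (1.68) were among the 8 higher, and Jak2 did not pass. Under quantile normalization 5 of the 26 were lower. Against NPC, Id4 (3.26), Id1 (1.74) and Il6st (1.06), the shared receptor of that cytokine family, were higher and 0 were lower. Of all probes, 2.73% were higher than in NPC and 0.0534% lower. Under quantile normalization 1 of the 26 was higher than in NPC, and without the intensity trend 0 were.

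Of 23 genes of reactive astrocytes tested, 2 were higher and 9 lower than in MEF, beside 12.5% and 11.3% of all probes. The largest differences were those of Fbln5 (-3.11), Osmr (-2.85), Cxcl10 (2.75) and Timp1 (-2.28). Against NPC 12 were higher and 0 lower, beside 2.73% and 0.0534% of all probes. The 12 were led by Osmr (8.18, at least 66.7-fold), Emp1 (7.39), Ptgs2 (6.73, at least 24.3-fold) and Fbln5 (6.53, with a second probe at 1.62 that did not pass). Under quantile normalization 7 were higher than in NPC. Many of these genes are also made by fibroblasts. Fibroblast markers moved in the same way: 11 of 12 were lower in ciNPC than in MEF and 11 of 12 higher than in NPC. All 12 were above background in MEF and on every ciNPC array, with a mean level of 5.57 in MEF and 2.31 to 2.84 in ciNPC. In NPC 6 of 12 were above background and the mean level was -3.84, with Col1a1, Lum, Pdgfrb, Postn, Twist1 and Twist2 not above it. Their part in the result was not tested.

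Relatives of the members, from the same protein families, were mostly lower than in MEF where they passed. Of 42 tested, 4 were higher in ciNPC than in MEF (Nes, Nefl, Aqp11 and Atp1b1) and 9 lower, with 14 lower without p13 replicate 2. Of all probes, 12.5% were higher and 11.3% lower than in MEF, and 2.73% were higher than in NPC. The largest differences were those of the neurofilament gene Nefl (4.77, at least 7.15-fold), the water channel Aqp3 (-4.02, at least 4.17-fold lower), the glutamate transporter Slc1a6 (-3.40) and the connexin Gjb2 (-2.86). Against NPC 7 were higher, among them Gjb2 (6.68, at least 24.5-fold), Smoc2 (6.40) and the muscle filament gene Des (5.19, at least 9.15-fold). With probes above background on all 5 arrays, 3 were higher than in NPC.

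**Figure D5:**
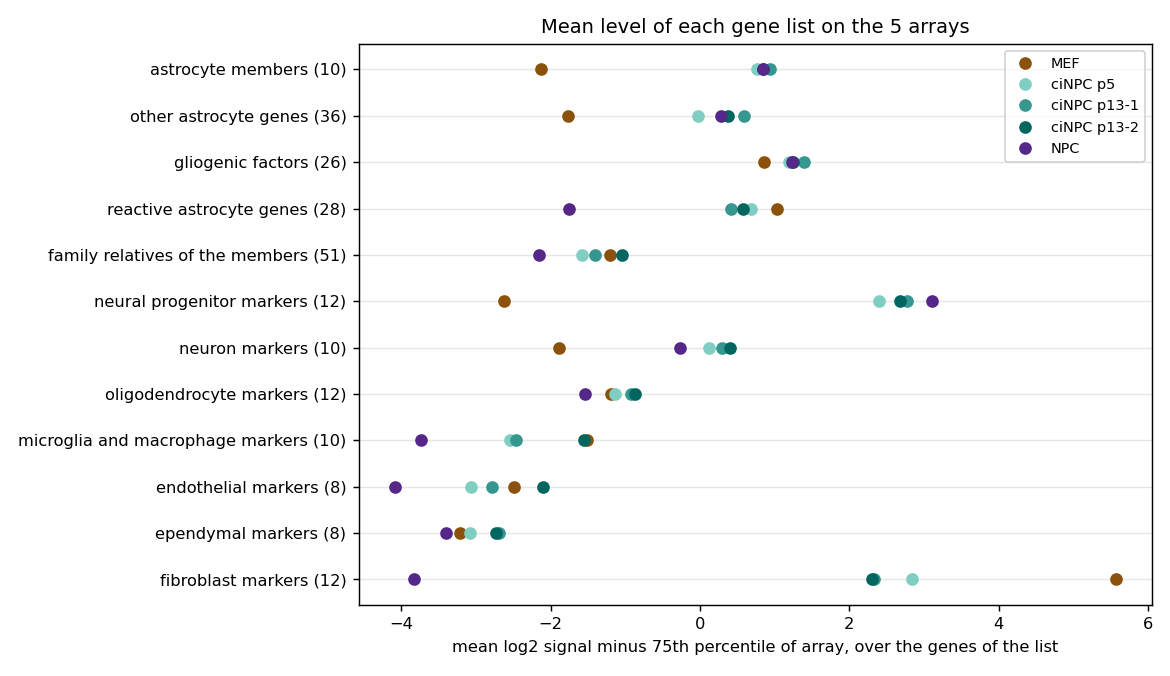
Mean level of each gene list on each array, as log2 signal minus the 75th percentile of the array, with the number of genes in brackets. Each point is 1 array. On the fibroblast list the ciNPC arrays, at 2.31 to 2.84, lie between MEF at 5.57 and NPC at -3.84, and on the reactive astrocyte list they lie nearer to MEF than to NPC.

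Markers of the neural cells that could stand beside astrocytes were read too. Neural progenitor markers were higher than in MEF for 11 of 12 genes and passed against NPC for 0 of 12. Their mean level was -2.63 in MEF, 2.40 to 2.77 in ciNPC and 3.11 in NPC, and all 12 were above background on the ciNPC and NPC arrays. Slc1a3, Aldoc, Sparcl1 and Aldh1l1, which progenitors and astrocytes share, were higher than in MEF as well. What part progenitors had in that rise was not tested. Of 9 neuron markers tested, 5 were higher and 3 lower than in MEF. Of 12 oligodendrocyte markers, 1 was higher and 1 lower. Microglia markers gave 0 higher and 2 lower of 9, endothelial markers 0 higher and 2 lower of 5, and ependymal markers 3 higher and 1 lower of 6. Beside these counts, 12.5% of all probes were higher and 11.3% lower than in MEF, and 2.73% were higher and 0.0534% lower than in NPC. Other probes of Csf1r and Itgam, the microglial genes counted as lower, did not pass. A second probe of the endothelial gene Kdr, counted as lower, passed as higher (1.27, limma adjusted p = 0.00996). On the ciNPC arrays 5 to 7 of 10 microglia markers and 3 to 4 of 8 endothelial markers were above background, against 5 and 3 in NPC. Tyrobp was at least 4.34-fold and Flt1 at least 84.7-fold higher in ciNPC than in NPC, while Ptprc, C1qa and Cx3cr1, and Cdh5, Tek, Tie1 and Cldn5, were above background on no ciNPC array. Their part in the results was not tested.

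The members were also read at the sequence level. RefSeq promoter windows on GRCm38.p6, from 250 bases before to 50 bases after the start, were matched for 7 members by symbol, with 2 windows for Aldoc. They were searched on both strands for the nuclear factor I half-site TTGGC and the STAT site TTCNNNGAA, whose factors act on astrocyte genes. The STAT letters occurred in the windows of Slc1a3, Gfap and the second start of Aldoc, and in 8.30% of all 32851 windows. The half-site occurred in the windows of Slc1a2 and the first start of Aldoc, and in 46.7% of all windows. The 250 bases before the start of Slc1a3 (chr15:8710808-8711057, minus strand) are shown because Slc1a3 had the largest difference from MEF among the members with a window. The capitals mark the STAT letters.

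Slc1a3 promoter: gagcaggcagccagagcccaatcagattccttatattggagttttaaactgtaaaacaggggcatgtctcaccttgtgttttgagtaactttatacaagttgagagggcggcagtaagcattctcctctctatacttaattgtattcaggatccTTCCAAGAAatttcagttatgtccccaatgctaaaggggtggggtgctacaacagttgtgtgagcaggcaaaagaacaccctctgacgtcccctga

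A match of letters describes the sequence and does not show that a factor binds there. The arrays measured RNA alone, so the windows carry no value of their own.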

How the data were processed

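RNA of mouse cells, labelled with Cy3, was hybridised to 5 Agilent arrays in 1 colour. The deposited scanner files hold the processed signal as an intensity, made by the authors with Agilent Feature Extraction 10.7.1.1, per the submitters' processing notes; background subtraction and outlier and well-above-background marks come from that software, and the file headers name build mm9. The deposited value table holds log2 values; all columns have a median of 5.64 and follow the log2 processed signal (r 0.995 to 0.999), as quantile normalization would give, which the sources used here do not state.

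Non-control spots without outlier marks were used. Each log2 intensity was set relative to the 75th percentile of its array, and spots that carry the same probe were averaged. Probes marked as well above background on all arrays of 1 or more groups (35611) were tested with limma 3.58.1 in R 4.3.3 (intensity trend). ciNPC were compared with MEF and NPC in a fit of 3 cell types (2 residual degrees of freedom), and p13 with p5 in a fit of 4 groups (1 residual degree of freedom). Single arrays are assumed to vary like the ciNPC arrays. P-values were adjusted by Benjamini-Hochberg; a probe passed at adjusted p under 0.05 and at least 2-fold. "At least" folds set the dim side at the lowest level of any probe well above background on its array, or at the probe's own level if higher. They average all arrays of the bright side and hold for this processing alone. Normexp with its offset can give less: for Mlc1 against MEF the log2 difference was 6.92, against 9.10 here. The limma fit of ciNPC against MEF was tested on simulated data in which all arrays varied alike.

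The members and the gene lists were chosen with earlier results of these data known. All member probes are named, and of each list up to 4 genes with the largest differences among those that passed against MEF and against NPC, plus the 3 nearest profiles of each tested probe; other names were chosen after their values were seen, and some genes the rule would name are not reported here. A list gene is read by its brightest probe. Alternatives were quantile normalization, another percentile, normexp (offset 50), the value table, other filters, outlier spots kept, 1 probe a gene, no intensity trend and leaving out each ciNPC array. The number of arrays limits the precision.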

Additional observations from a re-analysis of the deposited data

How the results depend on the processing

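Against MEF, the counts of 7 member probes higher and 0 lower stayed within 1.5-fold under every alternative run, as did the counts over all probes. The position of ciNPC between MEF and NPC and the NPC against MEF counts moved by less than their margins. Over all probes, the 972 higher than in NPC became 542 under quantile normalization, 537 in the value table, 576 with probes above background on all 5 arrays and 329 without the intensity trend, and 1189 to 1586 with 1 ciNPC array left out. The 19 lower became 37, 37, 12 and 11 in that order, 59 with normexp, 34 without a filter and 78 to 282 with 1 array left out. For p13 against p5, the 227 higher became 3 under quantile normalization, 3 in the value table, 76 with probes above background on all 5 arrays, 112 with 1 probe a gene and 0 without the trend, and the 72 lower became 0, 0, 40, 41 and 0. The 1 member probe called became 0 under quantile normalization, in the value table and without the trend. The cause was not tested.

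Differences that had not passed changed sign as follows. Against MEF, Aqp4 probe 2 reached 0.21 with normexp and 0.061 without p13 replicate 1 (range -0.68 to 0.061 with 1 array left out). Against NPC, Slc1a2 probe 1 reached -0.40 under quantile normalization, -0.40 in the value table, and -0.22 to 0.21 with 1 array left out. Gja1 against NPC reached 0.021 under quantile normalization, 0.020 in the value table and 0.13 with the other percentile, and -0.13 to 0.076 with 1 array left out. With normexp, the Aqp4 probes reached 0.047 and 0.15 against NPC, and Gfap probe 3 spanned -0.59 to 0.25 with 1 array left out. For p13 against p5, quantile normalization and the value table gave -0.68 and -0.68 for Aqp4 probe 1, -0.38 and -0.38 for Slc1a2 probe 1, and -0.056 and -0.057 for Sparcl1. Normexp gave -0.034 for Sparcl1 and 0.29 for Aqp4 probe 2.

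No paired analysis was possible because only the p13 group has more than 1 array, so the groups share fewer than 2 replicate numbers. Leaving out an array of p13 leaves no residual degrees of freedom between passages, so that alternative gave no test. Gfap, Aqp4, Gjb6 and Slc1a2 lie near the background, and their levels bound little.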
